A study of Mus musculus with 20 samples.

Results

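The 9 genes described here encode the machinery that releases fatty acids from stored triglyceride in mouse white fat, and the hormone control of that release. They were chosen by name for their known roles: the lipases Pnpla2, Lipe and Mgll, the lipase co-activator Abhd5, the lipase inhibitor G0s2, the droplet proteins Plin1 and Cidec, the adrenergic receptor Adrb3 and the phosphodiesterase Pde3b. All 9 were found among the 56805 genes of the count tables, and all 9 passed the filter on low counts that left 21306 genes for testing. White adipose tissue RNA was sequenced from mice on a chow or a high-fat diet, each given water or a Tibetan tea water extract, with 5 libraries in each of the 4 groups after 10 weeks. The groups are called chow water, chow tea, high-fat water and high-fat tea. The sources used here do not give strain, sex, age or fat depot.

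A fat cell stores triglyceride in a lipid droplet, and lipolysis takes it apart one fatty acid at a time. Pnpla2 (adipose triglyceride lipase) makes the initial cut, Lipe (hormone-sensitive lipase) cuts the resulting diglyceride, and Mgll (monoglyceride lipase) frees the last fatty acid from glycerol. At rest Plin1 coats the droplet and holds Abhd5 away from Pnpla2. Noradrenaline acting on Adrb3 raises cyclic AMP and turns on protein kinase A, which phosphorylates Plin1 and Lipe and sets Abhd5 free, while insulin restrains the process through Pde3b, an enzyme that breaks down cyclic AMP.

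Each library held between 53047057 and 93314761 reads in genes. Levels are given in counts-per-million (CPM) of library sizes scaled by the trimmed mean of M-values (TMM), with means ± SD over the 5 libraries of a group. The tissue label was checked against 10 fat cell markers: none was at 0 in any group, and their summed level ran from 17070 to 58690 CPM. 3 libraries stood apart by transcripts of the pancreas, the kidney, or the reproductive tract and adrenal. In chow water 1, 14 pancreas acinar genes together reached 632017 CPM. In high-fat water 4, genes of the seminal vesicle, epididymis, testis and adrenal reached 39444 CPM, and in high-fat tea 4 kidney genes reached 24621 CPM. These 3 libraries also had the lowest fat cell sums of their groups. Counting skeletal muscle genes too, 9 of the 20 libraries held over 1000 CPM of one such list. Skeletal muscle genes reached 37439 CPM in high-fat tea 1 and 32634 CPM in high-fat water 5. The fits without the 3 kept these libraries and so still held other-organ transcripts. Results are therefore given with all 20 libraries and, where a call or size differs, without the 3 or without the 9.

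The promoters of the lipases Pnpla2, Lipe and Mgll and of the co-activator Abhd5 are shown first. The windows are the 250 bases before a gene's start in RefSeq, on build GRCm38.p6, read 5′ to 3′ on the gene's strand. They are Pnpla2 at chr7:141454938-141455187 on the plus strand, Abhd5 at chr9:122351366-122351615 on the plus strand, Mgll at chr6:88724162-88724411 on the plus strand and Lipe at chr7:25395988-25396237 on the minus strand. Capitals mark an E-box (CACGTG) or a GC box (GGGCGG, or CCGCCC read on the other strand).
Pnpla2: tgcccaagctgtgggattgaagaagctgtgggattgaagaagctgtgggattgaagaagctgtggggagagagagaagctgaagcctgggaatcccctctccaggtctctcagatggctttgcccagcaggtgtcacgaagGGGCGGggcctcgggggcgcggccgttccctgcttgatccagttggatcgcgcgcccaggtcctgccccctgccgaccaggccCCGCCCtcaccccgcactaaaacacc
Abhd5: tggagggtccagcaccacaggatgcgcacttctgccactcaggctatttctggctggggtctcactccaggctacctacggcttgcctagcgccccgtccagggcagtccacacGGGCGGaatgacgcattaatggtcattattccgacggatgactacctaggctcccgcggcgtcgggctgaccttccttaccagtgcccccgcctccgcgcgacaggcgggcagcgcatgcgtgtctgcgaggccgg
Mgll: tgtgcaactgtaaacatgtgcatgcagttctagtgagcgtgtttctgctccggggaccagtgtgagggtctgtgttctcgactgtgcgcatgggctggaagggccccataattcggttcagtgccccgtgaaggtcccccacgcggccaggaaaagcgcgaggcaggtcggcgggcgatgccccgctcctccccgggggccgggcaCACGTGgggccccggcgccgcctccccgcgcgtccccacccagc
Lipe: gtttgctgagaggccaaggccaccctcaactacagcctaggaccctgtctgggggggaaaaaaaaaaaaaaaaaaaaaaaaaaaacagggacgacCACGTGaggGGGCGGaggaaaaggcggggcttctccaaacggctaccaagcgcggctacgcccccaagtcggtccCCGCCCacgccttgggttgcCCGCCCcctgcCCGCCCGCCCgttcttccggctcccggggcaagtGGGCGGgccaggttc
The Pnpla2 window held GC boxes 109 and 26 bases before the start, the Abhd5 window held 1 GC box 136 bases before it, and the Mgll window held 1 E-box 44 bases before it. The Lipe window held 1 E-box, 155 bases before the start, and 6 GC boxes, of which a pair overlap. 7 of the 9 members had a window, Lipe, Mgll and Cidec with 2 each, which made 10 windows. Adrb3 and Pde3b had none. The Lipe window not shown held no E-box and no GC box. The Mgll window not shown held a GC box 121 bases before its start and no E-box. Over all 32851 windows of that length, 6.02% held an E-box and 32.7% a GC box. The cyclic AMP response element TGACGTCA was in 1.55% of all windows and a direct repeat of AGGTCA spaced by 1 base, a nuclear receptor motif, in 0.0335%, and neither was in any of the 10. Each motif was searched on both strands, and a match describes letters only.

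On the gene models of GRCm39 used for counting, Pnpla2 lies at chr7:141035111-141040656, Lipe at chr7:25078952-25098135, Mgll at chr6:88701394-88805342 and Abhd5 at chr9:122180673-122210589. Plin1 lies at chr7:79369966-79382651, G0s2 at chr1:192954469-192955525, Adrb3 at chr8:27715804-27740644, Pde3b at chr7:114014516-114138486 and Cidec at chr6:113401595-113412721. Counts cover the exons of each whole gene. 4 members share exonic bases with a gene on the opposite strand, and the count files' headers show no strand setting. The shared part was 24.9% of the exonic bases for Adrb3 (with Gm45470), 15.9% for Abhd5 (with A730085K08Rik), 15.6% for Lipe (with 4732471J01Rik) and 3.29% for Mgll (with Gm26588). The partners averaged 21.48, 0.2199, 4.967 and 1.9 CPM, against 248.7 CPM for Adrb3, 167.3 for Abhd5, 1255 for Lipe and 979.7 for Mgll. Reads of the partners cannot be told apart from the members' own in the shared bases.

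Levels between genes were compared per kb of exon. In chow water, Cidec, a protein that fuses droplets and keeps them large, stood highest at 2198 ± 739 CPM per kb, followed by Pnpla2 at 1230 ± 455. Lipe, Plin1, Mgll and G0s2 came next, with means of 221, 219, 164 and 160 CPM per kb. Lipe lay above Plin1 in only 3 of 5 libraries and Mgll above G0s2 in 3 of 5, so those neighbours did not separate. Adrb3 at 76.9 and Pde3b at 65.6 also crossed, with Adrb3 higher in 3 of 5 libraries, and Abhd5 was lowest at 33.2 ± 10.7 CPM per kb. Cidec, Pnpla2 and Abhd5 held the highest, second highest and lowest places in all 4 groups. In high-fat water the middle of the order differed. Lipe, at 178 ± 37.3 CPM per kb, stood below Plin1 (281 ± 58.3), Mgll (266 ± 58.8) and G0s2 (195 ± 34.7), and G0s2 was above Lipe in 4 of 5 libraries.

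**Figure D1:**
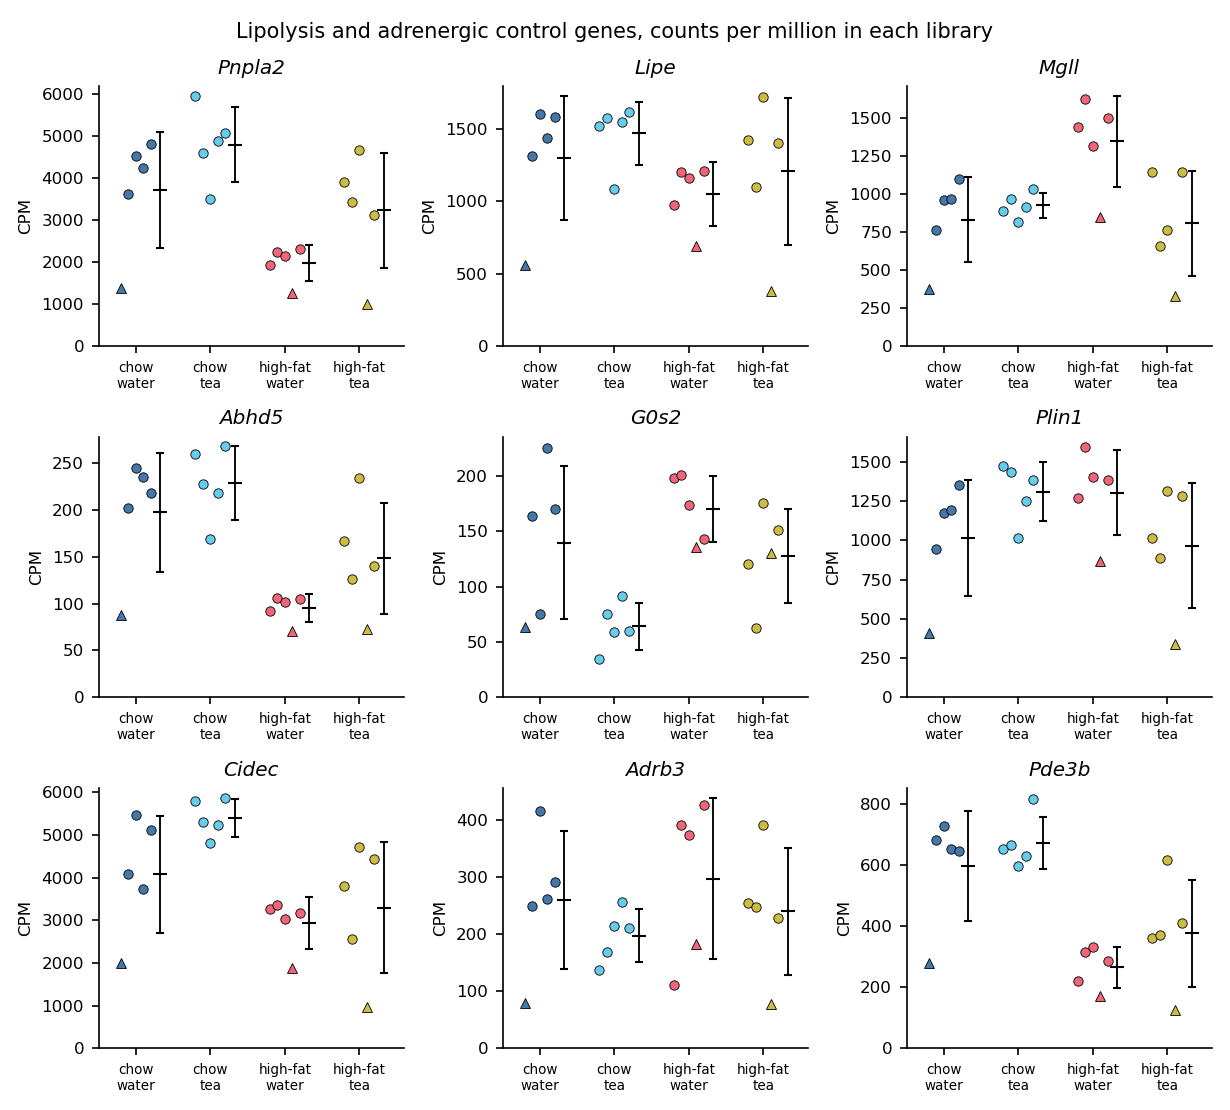
Level of each of the 9 genes in every library, in CPM on TMM-scaled library sizes, by group. Points are single libraries and bars are mean ± SD over 5 libraries. Triangles mark chow water 1, high-fat water 4 and high-fat tea 4. In high-fat water Abhd5 and Pde3b sit lowest of the 4 groups by mean and Mgll sits highest.

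High-fat diet was compared with chow in water-drinking mice. Abhd5, which switches Pnpla2 on, and Pde3b, the cyclic AMP phosphodiesterase through which insulin acts, were lower on the high-fat diet. Abhd5 fell 2.08-fold and Pde3b 2.26-fold. No member was higher by the test, so 2 of 9 fell and 0 of 9 rose, where 15.2% of all genes tested were called, 7.11% lower and 8.06% higher. The median log2 difference of the 9 was -0.31, beside 0.00 for all genes tested. In bulk tissue, fewer cells of a type and less RNA per cell cannot be told apart.

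Abhd5 stood at 87.76, 201.9, 245, 234.7 and 218.1 CPM in the 5 chow water libraries, in order 1 to 5. In high-fat water it stood at 92.03, 106.2, 102.2, 70.47 and 104.7 CPM. Every high-fat water value lay below 4 of the chow water values, and chow water 1, the library with pancreas transcripts, lay among the high-fat values. The log2 difference was -1.05 (SE 0.27, edgeR quasi-likelihood test, Benjamini-Hochberg adjusted p = 0.0162). It kept that call whichever of the 10 libraries was left out, with log2 differences from -1.29 to -0.96.

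Pde3b stood at 279.8, 682.2, 728, 652 and 647.1 CPM in chow water. In high-fat water it stood at 218.9, 316, 331.2, 172.3 and 287.1 CPM. The groups overlapped through chow water 1 alone. Its log2 difference was -1.17 (SE 0.32, edgeR adjusted p = 0.0209). Without high-fat water 1 the adjusted p was 0.057, at a log2 difference of -1.11, and the call was kept without any other single library.

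Pnpla2, the lipase that starts the breakdown, stood at 1384, 3623, 4530, 4233 and 4806 CPM in chow water. In high-fat water it stood at 1928, 2240, 2155, 1273 and 2313 CPM. 4 of the chow water libraries lay above every high-fat water library, and chow water 1 lay inside the high-fat range. With all libraries the log2 difference of -0.91 (SE 0.36) did not pass the edgeR test (adjusted p = 0.0979). It passed without chow water 1 (log2 difference -1.16, adjusted p = 0.0191), without the 3 libraries (-0.99, adjusted p = 0.0014), without the 9 (-1.15, adjusted p = 0.0154) and with DESeq2 on all libraries (adjusted p = 0.0314). It did not pass with limma voom (adjusted p = 0.206) or, in edgeR, with the replicate number as a block (adjusted p = 0.129). Nor did it pass in edgeR with only the compared groups fitted (adjusted p = 0.115) or with any other single library left out.

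Mgll, which takes the last fatty acid off glycerol, differed the other way. It stood at 379.7, 764, 960.6, 967.4 and 1099 CPM in chow water and at 1442, 1629, 1315, 853.3 and 1500 CPM in high-fat water. 4 of the high-fat water libraries were above all chow water libraries, and high-fat water 4, the one with reproductive tract and adrenal transcripts, lay inside the chow range. The log2 difference was 0.69 (SE 0.30, edgeR adjusted p = 0.13), and without the 3 libraries it was 0.64 (adjusted p = 0.0166).

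The other 5 members did not pass the test with all libraries. Lipe averaged 1298 ± 430 CPM in chow water and 1049 ± 220 in high-fat water. Plin1, the droplet coat, averaged 1017 ± 371 and 1306 ± 271 CPM, and G0s2, which blocks Pnpla2, 139.7 ± 68.7 and 170.0 ± 30.2 CPM. Adrb3 averaged 259.7 ± 121 and 297.3 ± 141 CPM, with high-fat water 1 at 110.7 and the highest high-fat water library at 427.2. Cidec averaged 4080 ± 1371 and 2940 ± 603 CPM. Their log2 differences lay between -0.47 for Cidec and 0.36 for Plin1, with edgeR adjusted p from 0.383 to 0.794. No member had groups that did not overlap with all libraries, where 12.9% of all genes tested did.

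Without the 3 libraries, 5 of 9 members were called, 4 lower (Pnpla2, Abhd5, Pde3b and Cidec) and 1 higher (Mgll), where 21.2% of genes tested were called, 9.25% lower and 12% higher. Cidec then had a log2 difference of -0.52 (edgeR adjusted p = 0.0498). Chow water 1 and high-fat water 4 were the lowest libraries of their groups for these members, so leaving them out also narrowed the spread. The SE of Pnpla2 was 0.36 with all libraries and 0.17 without the 3. Leaving out the 9 libraries kept only chow water 3, 4 and 5 and high-fat water 1 and 2 for this comparison. Then 3 members were called, Pnpla2, Abhd5 and Pde3b, all lower, where 9.2% of genes were called and 4.06% were lower. Markers of other cells moved in the same comparison. Of the fat cell markers 2 of 10 fell and none rose, while the first of them, Adipoq, averaged 2774 ± 1246 CPM in chow water and 2994 ± 621 in high-fat water. Summed fat cell markers ran from 17860 to 57490 CPM in chow water and from 19470 to 36240 in high-fat water. Within these sums Cfd ran from 5089 to 16350 CPM in chow water and from 1477 to 3125 in high-fat water. Of the 10 markers 7 had a negative log2 difference and 3 a positive one, so the sum is not fat cell content alone. Of the 8 genes of lipid-associated macrophages 5 rose, and the median log2 difference of the 8 was 2.76. Their sums, 3436 to 10440 CPM in chow water and 6161 to 12350 in high-fat water, do not show that size. In each group the sum was lowest in the library with the lowest fat cell sum, so it may not follow macrophages alone. Of the 10 general macrophage genes 3 rose and 2 fell, with sums of 569.8 to 1773 and 1234 to 3032 CPM, and no gene of these lists was at 0 in any group. The part of these cells in the members' differences was not tested.

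**Figure D2:**
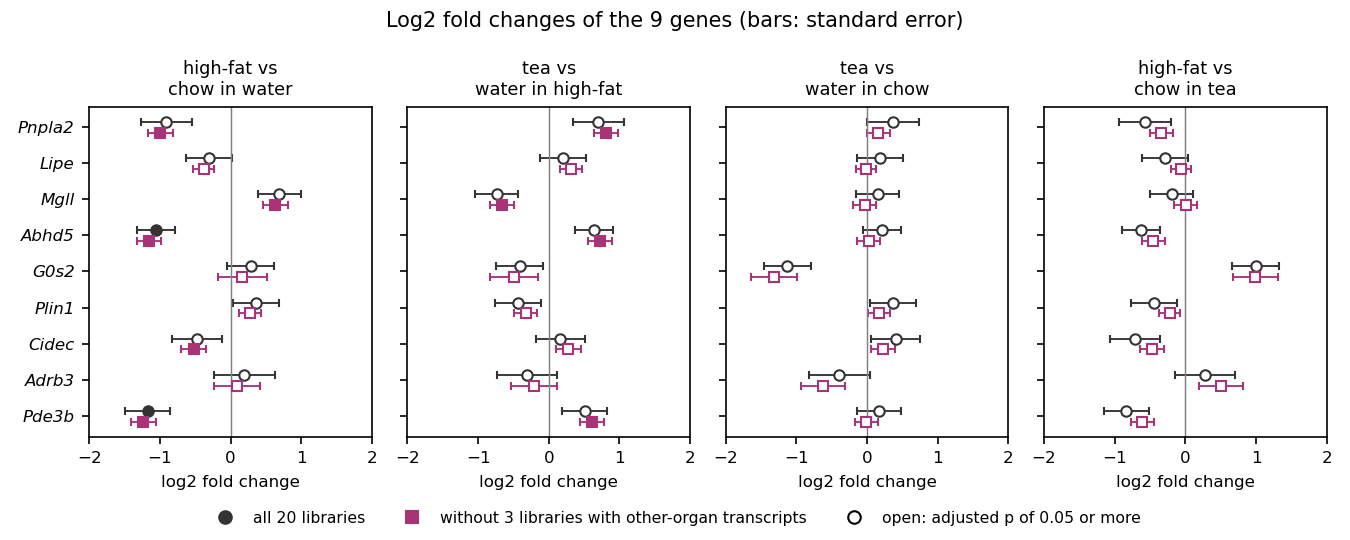
Log2 difference of each of the 9 genes, with standard error. Panels show high-fat against chow in water, tea against water in high-fat mice, tea against water in chow mice, and high-fat against chow in tea. Black circles use all 20 libraries. Purple squares leave out chow water 1, high-fat water 4 and high-fat tea 4. Filled symbols have an edgeR adjusted p below 0.05. With all libraries the filled symbols are Abhd5 and Pde3b for the diet in water, and there are none in the other panels.

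Tea was compared with water among high-fat mice. This comparison shares the high-fat water group with the diet comparison, so the 2 sets of values are not independent and are only set side by side. With all libraries 0 of 9 members were called by edgeR, where 4.36% of all genes tested were. At an unadjusted p below 0.05 there were 2, Mgll and Abhd5, where 23.6% of all genes were. DESeq2 and limma voom, which called 11.4% and 5.25% of all genes, called 0 members. No member had groups that did not overlap, where 5.55% of genes did. The median log2 difference of the 9 was 0.17, beside 0.02 for all genes tested.

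In high-fat tea Pnpla2 stood at 3910, 3433, 4661, 1009 and 3113 CPM. 4 of these libraries exceeded the highest high-fat water value of 2313, and high-fat tea 4, the library with kidney transcripts, was below all of them. The log2 difference was 0.70 (SE 0.36, edgeR adjusted p = 0.25), against -0.91 for the high-fat diet.

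Mgll stood at 1146, 661.4, 765.6, 329.8 and 1146 CPM in high-fat tea. All 5 were below 4 of the high-fat water libraries, and high-fat water 4, at 853.3 CPM, lay within the tea range. The log2 difference was -0.74 (SE 0.30, edgeR adjusted p = 0.153, unadjusted p = 0.0265), against 0.69 for the diet.

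Abhd5 stood at 167.2, 126.2, 234.3, 72.69 and 140.5 CPM in high-fat tea, and all but high-fat tea 4 were above the highest high-fat water value of 106.2. Its log2 difference was 0.64 (SE 0.27, edgeR adjusted p = 0.163, unadjusted p = 0.03), against -1.05 for the diet. Pde3b stood at 362.2, 372.6, 615.9, 123.9 and 410.2 CPM, again with all but high-fat tea 4 above the high-fat water range. Its log2 difference was 0.51 (SE 0.32, edgeR adjusted p = 0.351), against -1.17 for the diet.

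The remaining 5 members had log2 differences with tea from -0.43 for Plin1 to 0.20 for Lipe, with edgeR adjusted p of 0.452 or above. Without the 3 libraries 4 of 9 members were called, where 7.48% of genes tested were, 3.44% higher and 4.05% lower. Pnpla2 (0.81, adjusted p = 0.0141), Abhd5 (0.72, adjusted p = 0.0214) and Pde3b (0.61, adjusted p = 0.0404) were higher with tea and Mgll (-0.66, adjusted p = 0.031) was lower. High-fat water 4 and high-fat tea 4 were the lowest libraries of their groups for these members, so leaving them out also narrowed the spread. The SE of Pnpla2 was 0.36 with all libraries and 0.17 without the 3. No other alternative fit called a member in this comparison. Without the 9 libraries, which left high-fat water and high-fat tea with 2 libraries each, none was called, where 0.0583% of genes were. Of the fat cell markers 2 of 10 rose with tea and none fell. Their summed levels were 19470 to 36240 CPM in high-fat water and 17070 to 52620 in high-fat tea. In high-fat tea 4, the lowest, Pck1 made up 8155 of the 17070 CPM, where the other high-fat tea libraries held 3623 to 5022 CPM of Pck1. Of the 8 lipid-associated macrophage genes 5 fell, and the median log2 difference of the 8 was -2.33. Their sums ran from 2848 to 10160 CPM in high-fat tea, lowest in high-fat tea 4, as the fat cell sum was. The part of these cells in the members' values was not tested.

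Among chow mice, tea was compared with water. By edgeR 0 of 9 members were called, where 0.0235% of all genes tested were. At an unadjusted p below 0.05 there was 1, G0s2, where 12.4% of genes were. DESeq2 and limma voom, which called 1.23% and 0.0282% of genes, called 0 members. No member had groups that did not overlap, where 2.56% of genes did. G0s2, the Pnpla2 inhibitor, stood at 63.26, 164.1, 75.28, 225.4 and 170.4 CPM in chow water and at 34.24, 74.85, 59.39, 91.36 and 60.04 CPM in chow tea. The groups overlapped, and chow tea had the lowest mean of the 4 groups at 63.98 ± 21.2 CPM. Its log2 difference was -1.13 (SE 0.34, edgeR adjusted p = 0.203, unadjusted p = 0.00343). The other 8 had log2 differences from -0.39 for Adrb3 to 0.40 for Cidec, and chow water 1 was the lowest chow water library for all 9 members.

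Among tea-drinking mice, high-fat diet was compared with chow. By edgeR 0 of 9 members were called, where 0.178% of all genes tested were. DESeq2 and limma voom, which called 4.32% and 0.343% of genes, also called 0. At an unadjusted p below 0.05 there were 3, where 16.3% of genes were. Those 3 were G0s2 (log2 difference 1.00, SE 0.33, adjusted p = 0.175), Pde3b (-0.83, SE 0.32, adjusted p = 0.218) and Abhd5 (-0.63, SE 0.27, adjusted p = 0.267). Cidec was the 1 member of 9 whose groups did not overlap, where 2.77% of all genes did not. It ran from 4800 to 5856 CPM in chow tea and from 966.8 to 4707 in high-fat tea, and its log2 difference of -0.71 had an adjusted p of 0.325. The interaction of diet and tea, which tests whether the diet difference depended on tea, called 0 of 9 members, where 0.0657% of all genes were called. No member had an unadjusted p below 0.05 there, where 15% of genes did, and edgeR adjusted p ran from 0.344 to 0.991. DESeq2 and limma voom, which called 3.24% and 0.0282% of genes, called 0 members. The smallest interaction p among the 9 was that of Mgll, at a log2 value of -0.89 (SE 0.43, unadjusted p = 0.0532).

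Ratios between members within a library are the same whatever share of the RNA comes from cells that have neither gene. They were chosen after the levels had been seen and are given as descriptions, with no test. The ratio of Mgll to Pnpla2 per kb was 0.137 ± 0.0153 in chow water, 0.118 ± 0.0187 in chow tea, 0.405 ± 0.0336 in high-fat water and 0.160 ± 0.0520 in high-fat tea. The high-fat water libraries ran from 0.3631 to 0.445 and all lay above every library of the other groups, whose highest was 0.2191. High-fat tea 4, at 0.1944, lay within the range of the other high-fat tea libraries, 0.0977 to 0.2191. Chow water 1, at 0.1632, was above the other chow water libraries, 0.1254 to 0.136, though below every high-fat water library. The ratio of Plin1 to Pnpla2 ran from 0.3892 to 0.4631 in high-fat water, where the other 3 groups ran from 0.1612 to 0.2684. Lipe to Pnpla2 ran from 0.2602 to 0.2797 in high-fat water and from 0.1316 to 0.2309 elsewhere. Of all genes, 13.2% had a ratio to Pnpla2 that did not overlap between the diets in water, and 6.82% one that did not overlap between tea and water in high-fat mice.

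The ratio of Abhd5 to its partner lipase overlapped between all groups. Abhd5 to Pnpla2 per kb averaged 0.0278, 0.0243, 0.0247 and 0.0250 in chow water, chow tea, high-fat water and high-fat tea. Against Plin1, the coat protein that holds it, Abhd5 was lower in high-fat water. That ratio averaged 0.155 ± 0.0176 in chow water, 0.136 ± 0.0101 in chow tea, 0.0575 ± 0.00414 in high-fat water and 0.126 ± 0.0310 in high-fat tea. The highest high-fat water library, at 0.06332, was below the lowest of all other libraries, at 0.08526. Pde3b to Plin1 also separated high-fat water, at 0.08794 to 0.12, from both chow groups and from high-fat tea, where the lowest library was 0.1627. For a ratio to Plin1, 7.21% of all genes separated the diets in water and 4.16% separated tea from water in high-fat mice.

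**Figure D3:**
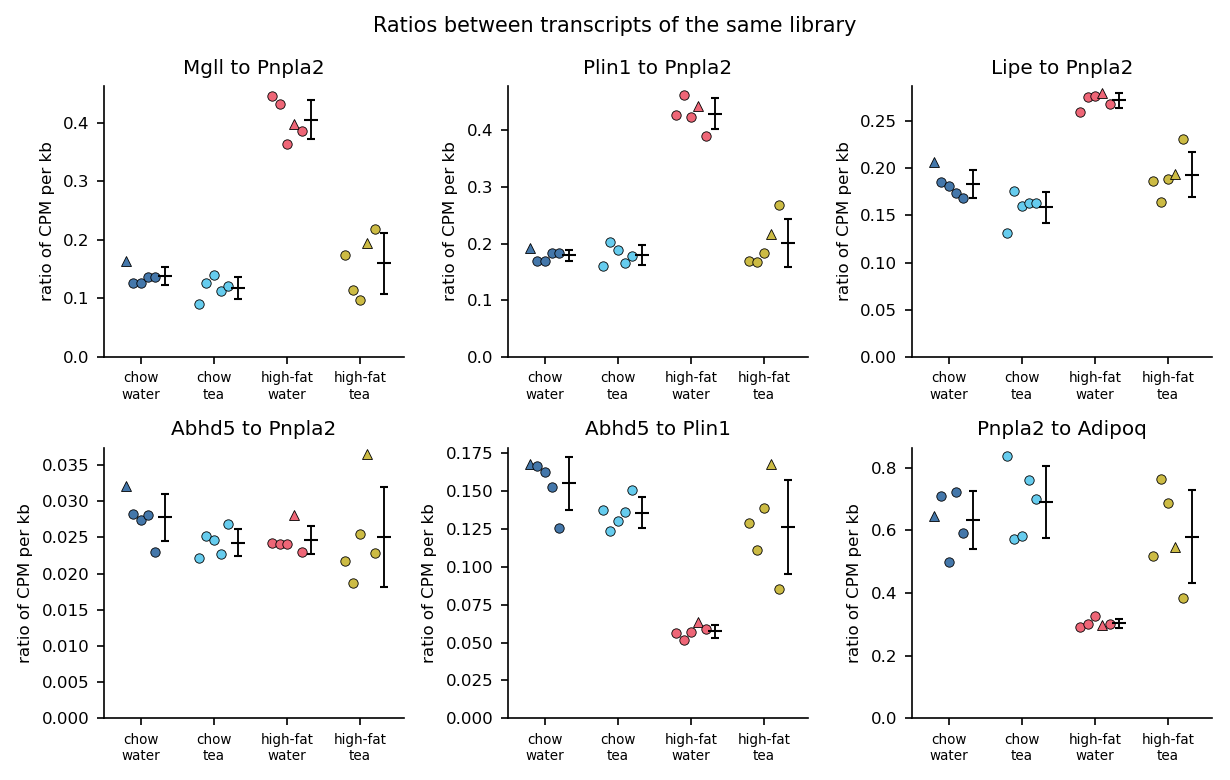
Ratios between members, and of Pnpla2 to the fat cell marker Adipoq, within each library, per kb of exon, by group. Points are single libraries and bars are mean ± SD over 5. Triangles mark chow water 1, high-fat water 4 and high-fat tea 4. For Mgll to Pnpla2 the high-fat water libraries, 0.3631 to 0.445, lie above all other libraries.

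The fat cell hormone Adipoq served as a second denominator. Per unit of Adipoq, 6 of 9 members did not overlap between the diets in water (Pnpla2, Lipe, Mgll, Abhd5, Pde3b and Cidec), where 5.08% of all genes did not, and all of these but Mgll were lower on the high-fat diet per unit of Adipoq. Between tea and water in high-fat mice, 4 of 9 did not overlap (Pnpla2, Mgll, Abhd5 and Cidec), where 2.52% of genes did not. Tea in chow separated 0 of 9, against 0.671% of genes, and diet in tea 0 of 9, against 1.81%. Pnpla2 to Adipoq per kb was 0.2902 to 0.3252 in high-fat water, where chow water ran from 0.4983 to 0.7206 and high-fat tea from 0.3852 to 0.7631. The 9 ratios share 1 denominator and so are not independent of each other. They also depend on the marker chosen: Adipoq is 1 of the 10 fat cell markers, of which 7 had a negative diet log2 difference in water, with a median of -0.25, while the mean of Adipoq was higher. Per unit of the geometric mean of all 10 markers, a denominator added after the Adipoq ratios had been seen, 6 of 9 members again did not overlap between the diets in water, where 9.02% of genes did not, but they were not the same 6. Pnpla2, Abhd5 and Pde3b were lower in high-fat water, and Mgll, Plin1 and Lipe were higher. Lipe thus turned from lower to higher, at 1.043 to 1.074 in high-fat water and 0.8487 to 0.9634 in chow water, and Cidec overlapped, at 2.731 to 3.59 and 2.302 to 3.439. The ratio of the Pnpla2 means, high-fat water over chow water, was 0.478 per unit of Adipoq and 0.786 per unit of the 10 markers. Between tea and water in high-fat mice 3 of 9 did not overlap by this denominator, where 3.86% of genes did not: Pnpla2 was higher with tea, Mgll and Plin1 were lower, and Abhd5 and Cidec overlapped. Tea in chow separated 0 of 9, against 0.902% of genes, and diet in tea 2 of 9 (G0s2 and Adrb3, both higher on the high-fat diet), against 4.59%. As a share of the 9 genes' summed level per kb, Pnpla2 made up 27.7% in chow water, 19.9% in high-fat water and 28.9% in high-fat tea, and Mgll 3.78%, 8.04% and 4.47%. G0s2 made up 1.37% in chow tea, where the other 3 groups averaged 3.78% to 6.04%. The chow tea libraries, at 0.6513% to 1.928%, overlapped those of chow water, at 1.573% to 5.69%. In high-fat tea the G0s2 share had a median of 3.846%, with high-fat tea 4 at 11.89%.

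Across the 20 libraries the members varied together to differing degrees, described here by Pearson's r of log2 CPM. No test was run, since the libraries share groups and differ in fat cell marker levels. Pnpla2 and Abhd5 had r = 0.96, Abhd5 and Pde3b r = 0.96, and Mgll and Plin1 r = 0.89. Mgll and Abhd5 had r = 0.19, and G0s2 lay between r = -0.30 and r = 0.35 with the other 8. Among all genes tested with a mean log2 CPM of 1 or more, those most like Pnpla2 included Nxnl1 (r = 0.98), Sun2, Mgst1 and Sik2. For Cidec they were Ptprm (r = 0.96), Adig, Sh3glb1, Rbms2 and Trf. For Adrb3 the first was Gm45470 (r = 0.91), the opposite-strand gene that overlaps it, and the next was Pfkfb1 (r = 0.84).

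The other genes of the pathway were taken from 6 lists with 68 genes, all of which were tested. In the diet comparison in water 8 rose and 7 fell, where 15.2% of all genes were called. In the tea comparison in high-fat mice 3 rose and 6 fell, where 2.06% of all genes rose and 2.3% fell. Without the 3 libraries the counts were 11 higher and 13 lower of 67 with the diet, where 12% and 9.25% of all genes were. With tea they were 6 higher and 4 lower, where 3.44% and 4.05% of genes were. Without the 9 libraries they were 5 higher and 8 lower with the diet, where 5.14% and 4.06% of genes were. With tea they were then 0, where 0.0583% of genes were called. In tea against water in chow, diet in tea, and the interaction, edgeR called 0 of the 68. Of all genes tested it called 0.0235%, 0.178% and 0.0657%.

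Among receptors that drive lipolysis, Adrb1, a beta-adrenergic receptor, averaged 2.806 CPM in chow water and 4.27 CPM in high-fat water. It did not pass in either comparison (log2 difference 0.60 with the diet, edgeR adjusted p = 0.158, and -0.36 with tea, adjusted p = 0.484). Among 9 receptors that restrain lipolysis, Ptger3, a prostaglandin E receptor, rose with the diet from 48.90 ± 12.9 to 83.56 ± 15.96 CPM (log2 difference 0.77, edgeR adjusted p = 0.0179) and fell with tea to 36.13 ± 9.41 CPM (-1.21, adjusted p = 0.0062). Insr, the insulin receptor, fell with the diet from 275.1 ± 59.7 to 154.5 ± 18.0 CPM (-0.83, adjusted p = 0.0026) and rose with tea to 228.2 ± 37.8 CPM (0.56, adjusted p = 0.0456). Npr3, which clears natriuretic peptides, rose with the diet from 123.1 ± 95.1 to 980.2 ± 307 CPM (2.99, adjusted p = 0.00499), and Npy1r, a neuropeptide Y receptor, fell from 11.20 to 5.444 CPM (-1.04, adjusted p = 0.0183). The diet calls of Insr, Npr3 and Npy1r held without any single library. That of Ptger3 was lost without high-fat water 2 and that of Npy1r without the 9 libraries (adjusted p = 0.107).

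In the cyclic nucleotide list 3 of 21 genes were called on the diet, where 15.2% of all genes were. Pde3a, a sister gene of Pde3b, fell from 43.11 to 21.80 CPM (-0.98, adjusted p = 0.00143) and Pde4d, another cyclic AMP phosphodiesterase, fell from 104.7 to 29.96 CPM (-1.81, adjusted p = 0.0196). Gnai2, an inhibitory G protein subunit, rose from 266.9 to 368.7 CPM (0.47, adjusted p = 0.0261). With tea 1 of the 21 was called, where 4.36% of all genes were. It was Gnas, which fell from 24.00 to 10.47 CPM (-1.20, edgeR adjusted p = 0.0389). Gnas shares 12.9% of its exonic bases with Gm20721 and 8.68% with Gnasas1, both on the opposite strand, so its count is uncertain. None of the 8 genes of the insulin branch passed in either comparison by edgeR, where 15.2% and 4.36% of all genes did. The diet call of Pde4d was lost without chow water 4 or high-fat water 1, and that of Gnai2 without chow water 1 or 2, high-fat water 1 or 2, or the 9 libraries (adjusted p = 0.064). Without the 3 libraries Gnas had an adjusted p of 0.0675.

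Among 11 droplet coat and structure genes, Cav1, the caveola protein, rose with the diet from 746.7 ± 307 to 2096 ± 480 CPM (1.49, adjusted p = 0.01) and fell with tea to 833.0 ± 433 CPM (-1.33, adjusted p = 0.0402). Hilpda, an inhibitor of Pnpla2, fell with tea from 20.41 to 8.345 CPM (-1.29, adjusted p = 0.0374), a call that was lost without the 3 libraries (adjusted p = 0.0566). Plin2, Plin4 and Plin5, relatives of Plin1, had diet log2 differences of -0.17, 0.24 and -0.72 and did not pass. Nor did Adra2a, the inhibitory adrenergic receptor (-1.07, adjusted p = 0.204), Abhd15 (-0.39), the fatty acid carrier Fabp4 (0.02) or the glycerol channel Aqp7 (0.03).

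Among 12 other lipases and genes that handle the products, Pnpla3, a relative of Pnpla2 that competes for Abhd5, rose with the diet from 23.07 ± 16.9 to 109.2 ± 26.9 CPM (2.24, adjusted p = 0.0134) and fell with tea to 16.67 ± 13.8 CPM (-2.71, adjusted p = 0.0163). The carboxylesterases Ces1d and Ces1f fell with the diet (-1.20, adjusted p = 0.013, and -1.42, adjusted p = 0.0231), and the lysosomal lipase Lipa rose (1.15, adjusted p = 0.0116). The diet call of Ces1f was lost without chow water 3, high-fat water 1 or high-fat water 4. Ces1f rose with tea (1.93, adjusted p = 0.0161), where the kidney-bearing high-fat tea 4 stood at 1120 CPM. Without that library its log2 difference was 1.23 (adjusted p = 0.0196). The prostaglandin synthase Ptgs2 was called in both comparisons, which rested on 56.8 CPM in high-fat water 4. Without that library the log2 differences were -0.23 and -0.47 and neither was called. The diet call was also lost without any of chow water 2 to 5, and the tea call without high-fat water 1 or any of high-fat tea 1 to 4.

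**Figure D4:**
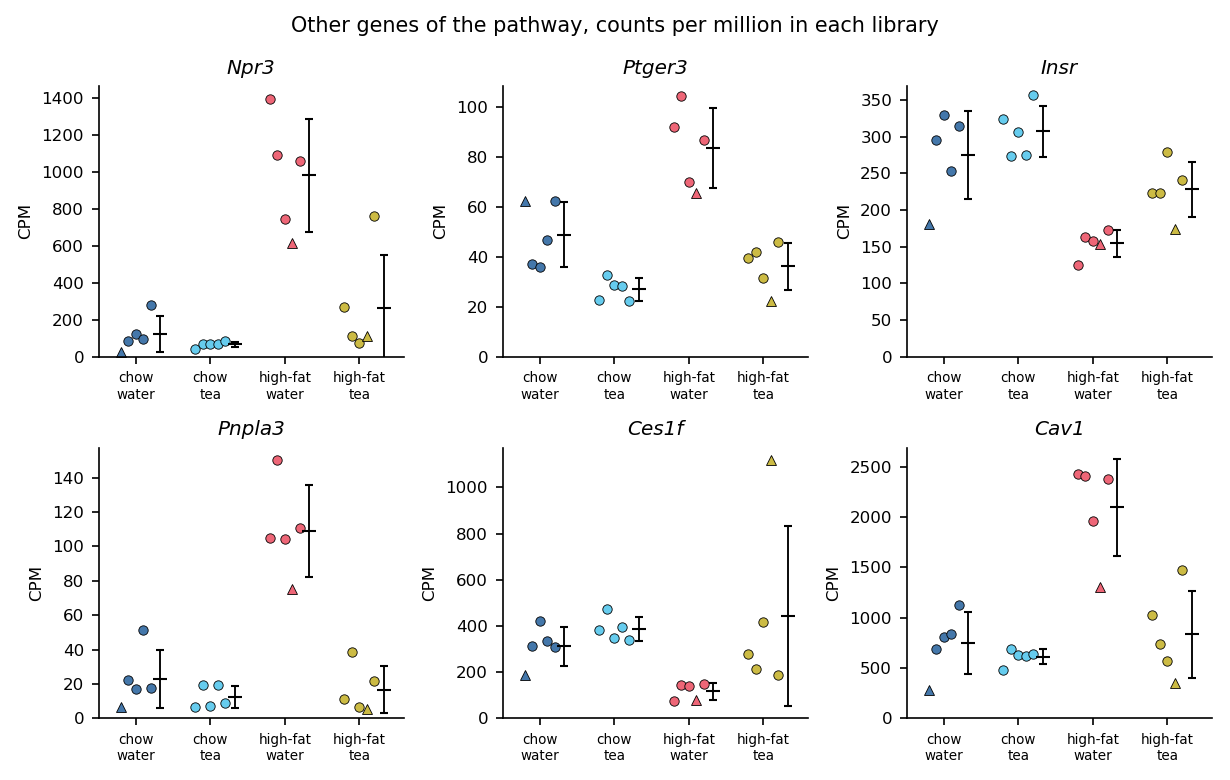
Levels in CPM on TMM-scaled library sizes of 6 other genes of the pathway in each library, by group. Points are single libraries and bars are mean ± SD over 5. Triangles mark chow water 1, high-fat water 4 and high-fat tea 4. Axes start at 0, which clips the lower SD bar of Npr3 in high-fat tea. Pnpla3 averages 109.2 CPM in high-fat water and between 12.21 and 23.07 CPM in the other groups.

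The tea calls of Ptger3 and Pnpla3 held whichever of the 10 high-fat libraries was left out. Ces1f was lost without high-fat water 1 (adjusted p = 0.0527). Insr was lost without any high-fat water library or high-fat tea 1 to 3. Cav1 was lost without high-fat water 1, 2, 3 or 5 or high-fat tea 1 to 4, Gnas without high-fat water 1 to 4 or high-fat tea 1, 3 or 4, and Hilpda without high-fat water 1 or 2 or high-fat tea 1 to 4. When the 2 high-fat groups were fitted on their own, none of these tea calls was kept, with adjusted p of 0.059 for Ptger3 and 0.0681 for Pnpla3. That fit called 21 genes in all, and the fit to all groups 928.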

How the data were processed

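The values deposited by the authors are raw counts of reads per gene, 1 file for each of 20 mouse white adipose tissue libraries. Per the file headers they were counted over GENCODE vM32 gene models on GRCm39 by featureCounts, in paired mode without counting pairs and with no strand setting. Of counts from 1 to 20, between 68.11% and 72.23% were even in each library, so the reads of a pair were mostly counted singly and a fragment weighs about 2. Per the labels' protocols the library kit was stranded and RNA was selected by polyA. The submitters' processing notes name fastp 0.23.2, HISAT2 2.2.1, featureCounts 2.0.6 and the build mm10, which differs from the headers.

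Genes were kept by edgeR's filterByExpr (minimum count 10, minimum total 15), which left 21306 and removed 35499. Library sizes were scaled by TMM, and 1 quasi-likelihood model with the 4 groups was fitted to all 20 libraries in edgeR 4.0.16 (R 4.3.3), with Benjamini-Hochberg adjustment over all genes tested and a threshold of 0.05. SE is the log2 difference divided by the root of its F statistic. All tests were 2-sided. DESeq2 1.42.0, limma voom 3.58.1, RLE factors, no low-count filter, fits to the compared groups alone, the replicate number as a block, each library left out in turn, and fits without 3 or 9 libraries that held other-organ transcripts were the alternatives. The scripts were tested on simulated data. No 2 libraries of a group were alike within sampling noise, with a lowest chi-square per gene of 68.67 over 40 pairs. Per the labels each group held 5 mice.

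The 9 genes, the lists and the alternatives were chosen with earlier results of these data known. All 9 members were named. From each pathway list, up to 4 called genes with the lowest p in each of the diet in water and tea in high-fat comparisons were named, beside a fixed set (Adrb1, Adra2a, Plin2, Plin4, Plin5, Abhd15, Fabp4 and Aqp7). Genes like a member were the 5 with the highest Pearson's r of log2(CPM + 0.5), for the members Pnpla2, Adrb3 and Cidec. The ratio to the geometric mean of the 10 fat cell markers was chosen after seeing the data. Promoter windows are from RefSeq. Some genes of these sets are not reported here. No files were left out.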

Additional observations from a re-analysis of the deposited data

Results flagged for a closer look

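Each member was examined in each group of 5 libraries for a library far from the rest, which made 36 sets. The measure was the gap of the lowest or highest library to its nearest neighbour, as a share of the group's range, with a critical value of 0.71 that chance passes in about 1 in 20 sets. 5 sets passed it, each through a low library. In chow water 1, the library with pancreas transcripts, Lipe stood at 558.1 CPM where the other chow water libraries held 1313 to 1603. In the same library Abhd5 stood at 87.76 CPM, where the others held 201.9 to 245, and Pde3b at 279.8 CPM, where the others held 647.1 to 728. Cidec stood at 1883 CPM in high-fat water 4, the library with reproductive tract and adrenal transcripts, where the others held 3034 to 3355. Lipe stood at 1087 CPM in chow tea 3, where the others held 1522 to 1615. That library did not exceed 1000 CPM on any other-organ list, and its fat cell sum of 42430 CPM was the lowest of chow tea. How much other-organ RNA contributed to these low values was not tested.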

How the results depend on the processing

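Over 891 values of the 9 members under the alternatives, 846 kept their direction and side of the threshold, 1 was no longer called, 10 became called and 34 changed sign, none of the last a called value. The cause was not tested for any of them. With the 9 libraries left out, Adrb3 on the diet in water was -0.40, and tea in chow gave -0.024 for Pnpla2, -0.10 for Lipe, -0.13 for Mgll, -0.094 for Abhd5 and -0.016 for Pde3b. With the 3 left out, tea in chow gave -0.013 for Lipe, -0.032 for Mgll and -0.011 for Pde3b, diet in tea gave 0.005 for Mgll, and the interaction gave 0.046 for Cidec. With limma voom, tea in high-fat gave -0.02 for Cidec, and the interaction -0.27 for Lipe and -0.14 for Adrb3. With 1 library left out in turn, Adrb3 on the diet in water ran from -0.084 to 0.43. Tea in chow ran from -0.035 to 0.27 for Lipe, -0.055 to 0.27 for Mgll and -0.034 to 0.25 for Pde3b, each below 0 without chow water 1. Mgll for diet in tea ran from -0.35 to 0.005, above 0 without high-fat tea 4. The interaction ran from -0.14 to 0.26 for Lipe and from -0.16 to 0.37 for Adrb3.

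Of all genes, the diet in water called 3232, 1890 to 3445 with 1 library left out and 2052 without the 9 libraries. It fell to 1890 without high-fat water 1 and to 2110 without chow water 2. Tea in high-fat called 928, and 212 to 2017 with 1 library left out, lowest without high-fat water 1 and highest without high-fat tea 5. It also called 2431 with DESeq2, 408 with no filter, 21 with only the compared groups, 1602 without the 3 and 13 without the 9. Tea in chow called 5 with edgeR, 2 to 6 with 1 library left out, 261 with DESeq2, 2 with no filter, 0 with only the compared groups, 9 without the 3 and 0 without the 9, where 2398 and 1501 genes had an unadjusted p below 0.05 in the fits that called 0. Diet in tea called 38, 10 to 390 with 1 library left out, 921 with DESeq2, 19 with no filter, 5 with only the compared groups, 73 with limma voom, 292 without the 3 and 5 without the 9. The interaction called 14, 3 to 111 with 1 library left out, 691 with DESeq2, 4 with no filter, 6 with limma voom, 44 without the 3 and, by edgeR, 0 without the 9, where 2260 genes had an unadjusted p below 0.05. The split of higher to lower was 1718 to 1514 for the diet in water and 1887 to 1154 with limma voom. With DESeq2 it was 91 to 170 for tea in chow (4 to 1 by edgeR), 516 to 405 for diet in tea (8 to 30) and 476 to 215 for the interaction (7 to 7).

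No pairing of the libraries by replicate number was seen, though this check cannot exclude it. Deviations from the group means correlated above 0.1 in 9 of 30 same-numbered pairs, from -0.27 to 0.48, and 5 correlated best with their own number. With the replicate number as a block, tea in chow called 2 genes, the other 4 comparisons 2611, 632, 28 and 14, and the interaction of Lipe was -0.044. The block changed no call of a member, with adjusted p of 0.028 for Abhd5 and 0.0184 for Pde3b on the diet in water.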
